A study of Mus musculus with 6 samples.

Results

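TRIM genes encode proteins with a tripartite motif, a RING finger followed by B-box domains and a coiled coil. The genes described here are the 68 protein-coding genes whose symbol starts with Trim and a digit, out of 55098 genes and 22046 protein-coding genes in the table. They were chosen by symbol and biotype alone, with no measured value. RNA came from the whole cerebellum of males aged 60 days after birth, with 3 libraries labelled Slc39a14 wildtype (WT, animals 1, 3 and 5) and 3 labelled Slc39a14 knock-out (KO, animals 2, 4 and 6), 1 library per animal. The gene Slc39a14 codes for ZIP14, which carries manganese and other divalent metals across membranes, and the series title presents the mouse as a model of dystonia parkinsonism caused by manganese and starting in childhood. No treatment is named in the labels. Strain background, litters and the deleted part of the gene are not given in these sources.

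Most TRIM proteins work as E3 ubiquitin ligases: the RING finger recruits a ubiquitin-conjugating enzyme, and the C-terminal domain chooses the target. One branch of the family is switched on by interferon and acts in antiviral defence, either by marking sensors and adaptors of the innate immune response or by binding virus proteins. Other members are made in neurons, where they act on the cytoskeleton, on axon growth and at synapses, and a further set works on chromatin. Members were therefore sorted, from general knowledge of the family, into 17 genes known to be induced by interferon, 11 known from neurons or brain, 5 of chromatin and transcription, 4 of striated muscle and 31 others.

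Libraries held 13805997 to 15788135 counts, and TRIM genes made up 0.314% to 0.333% of them. On the CPM scale (library-size scaled counts, TMM), Slc39a14 itself was at 42.4 ± 1.33 in WT against 42.3 ± 3.18 in KO (SD, n = 3 each), so this gene gives no check of the labels, and every direction below rests on them. Over all tested genes, WT 5 and KO 4 stood away from the rest: in a principal component analysis of log2(CPM + 1), component 1, with 37.5% of the variance, put them at 27.3 and 24.0 and the remaining libraries at -15.6 to -7.2. Values without this pair are given where they differ. Purkinje cell and oligodendrocyte markers were present in every library, at 6037 to 7544 and 4251 to 5823 CPM summed over 7 and 5 genes. Granule cell markers, 7 genes, summed to 4973 to 5058 CPM in WT and to 4564 to 4762 CPM in KO, with no overlap. All 7 of them had negative log2 fold changes (median -0.11), and 0 had an unadjusted p under 0.05 by edgeR. All 7 Purkinje cell markers and all 7 meningeal markers were positive (medians 0.097 and 0.26), also with 0 at such a p. The part of granule cells in the TRIM values was not tested. In whole tissue, fewer cells of a type and less RNA per cell cannot be told apart.

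Interferon-inducible TRIM genes were higher in the KO cerebellum in sum, and the neuronal ones were level. Summed over the 17 interferon-inducible members, the level was 55.6, 62.2 and 79.6 CPM in libraries WT 1, 3 and 5, against 82.97, 99.6 and 94.3 CPM in KO 2, 4 and 6, so the groups did not overlap, WT 5 and KO 2 being nearest to each other. Summed over the 11 neuronal members it was 2174, 2249 and 2223 CPM in the WT mice against 2198, 2194 and 2225 CPM in the KO mice, and the groups overlapped. The other 40 members are taken up after these. No TRIM gene passed the test across all genes.

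Of the 68 TRIM genes, 43 passed the filter on low counts (at least 10 counts in a library of median size, that is 0.709 CPM, in 3 libraries), and 25 did not. By edgeR's quasi-likelihood test with Benjamini-Hochberg adjustment over 17142 genes, 0 of the 43 were called at an adjusted p under 0.05, where 0.0467% of all tested genes were. At an unadjusted p under 0.05 there were 6, 4 higher (Trim25, Trim30a, Trim30d, Trim34a) and 2 lower (Trim16, Trim66) in KO, against 2.75% of all tested genes, 1.69% higher and 1.06% lower. DESeq2 called 0 TRIM genes (0.119% of all genes) with 5 at an unadjusted p under 0.05 (1.4%), limma-voom called 0 of 43 (0.0467%) with 7 at such a p (2.92%), and in the authors' deposited table none was called (0.128% of genes), the smallest adjusted p there being 0.573 for Trim30a.

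By edgeR the call depended on the filter. DESeq2, run on 32040 genes without this filter, called 0 TRIM genes. Run by edgeR on every gene with at least 1 count, 32046 genes, the 4 higher members were called: adjusted p = 0.000692 for Trim30a, 0.00192 for Trim30d, 0.0130 for Trim34a and 0.0235 for Trim25. In that fit 0.443% of all genes were called, 142 against 8 with the filter, while the 4 log2 fold changes moved by less than their standard errors. The standard errors were smaller without the filter. They went from 0.40 to 0.28 for Trim30a, 0.44 to 0.33 for Trim30d, 0.49 to 0.38 for Trim34a and 0.25 to 0.23 for Trim25. For Trim12a, with 0, 15 and 88 counts in WT 1, 3 and 5, the SE went from 0.91 to 0.32. The cause of these differences between the fits was not tested.

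All of the 10 tested interferon-inducible members had a log2 fold change above 0, and the median was 0.50. Above 0.5 there were 5, against 4.27% of all tested genes. Among all tested genes 48.8% lay above 0 and the median was -0.0036. The 11 neuronal members, all of which were tested, had a median of 0.015, with 7 positive and 4 negative. Between the groups of libraries there was no overlap for 5 of the 10 interferon-inducible members, all higher in KO (3.58% of all tested genes), and for 0 of the 11 neuronal ones (7.26% in either direction). In all, 4 of the 10 (Trim5, Trim12a, Trim30d, Trim34a) met the filter's level in every KO library but not in every WT library, so these counts describe the members that passed and are no test of the list. The median of the 10 moved with 1 library: 1.56 without WT 5 and 0.32 without WT 3. It came to 1.46 without WT 5 and KO 4. With limma-voom the median was 1.07.

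**Figure D1:**
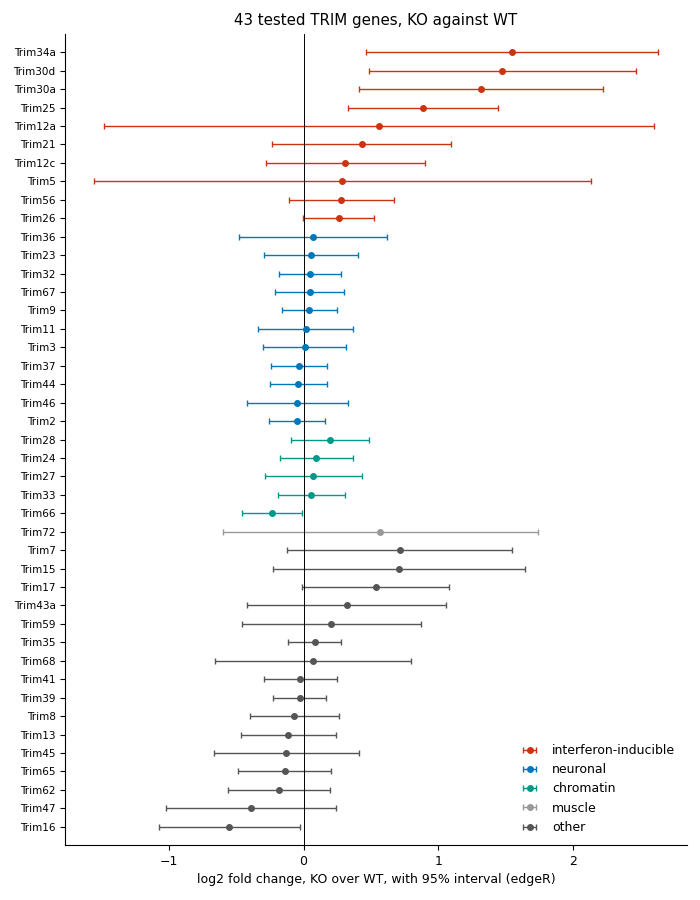
Log2 fold change of KO over WT (x axis) for each of the 43 tested TRIM genes (rows), with its 95% interval from the edgeR fit, coloured by class. The 10 interferon-inducible genes all lie right of 0, 4 of them with intervals that leave out 0, and the 11 neuronal genes lie between -0.051 and 0.070.

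The promoters below are printed because their genes, Trim30a, Trim30d, Trim34a and Trim25, are the interferon-inducible members with an unadjusted p under 0.05 between KO and WT, and a match to the core of the interferon-stimulated response element (ISRE) is the feature that most of these promoters share. Each runs from 250 bases before to 50 bases after a gene start, 300 bases in all, from RefSeq on GRCm38.p6, written from the gene's own strand, with matches in capitals. A match is GAAA, any 2 bases and GAAA, or on the other strand TTTC, any 2 bases and TTTC.
Trim30a, chr7:104465144-104465443, minus strand: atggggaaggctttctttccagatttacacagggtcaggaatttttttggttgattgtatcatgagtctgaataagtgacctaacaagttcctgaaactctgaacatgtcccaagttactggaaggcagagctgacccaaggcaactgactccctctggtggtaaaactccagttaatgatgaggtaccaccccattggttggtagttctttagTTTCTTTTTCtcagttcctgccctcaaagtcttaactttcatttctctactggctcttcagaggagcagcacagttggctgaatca
Trim30d, chr7:104507800-104508099, minus strand: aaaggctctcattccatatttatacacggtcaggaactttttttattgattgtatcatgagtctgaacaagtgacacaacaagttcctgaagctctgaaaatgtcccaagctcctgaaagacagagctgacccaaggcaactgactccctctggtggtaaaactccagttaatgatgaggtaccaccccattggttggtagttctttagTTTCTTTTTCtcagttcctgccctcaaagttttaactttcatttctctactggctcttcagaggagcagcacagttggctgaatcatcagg
Trim34a, chr7:104244207-104244506, plus strand: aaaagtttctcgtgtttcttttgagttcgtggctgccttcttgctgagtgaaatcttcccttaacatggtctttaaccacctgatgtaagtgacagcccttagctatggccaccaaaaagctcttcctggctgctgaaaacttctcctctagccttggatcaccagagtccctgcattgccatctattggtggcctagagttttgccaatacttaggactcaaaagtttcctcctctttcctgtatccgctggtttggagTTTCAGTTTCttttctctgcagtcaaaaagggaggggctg
Trim25, chr11:88999153-88999452, plus strand: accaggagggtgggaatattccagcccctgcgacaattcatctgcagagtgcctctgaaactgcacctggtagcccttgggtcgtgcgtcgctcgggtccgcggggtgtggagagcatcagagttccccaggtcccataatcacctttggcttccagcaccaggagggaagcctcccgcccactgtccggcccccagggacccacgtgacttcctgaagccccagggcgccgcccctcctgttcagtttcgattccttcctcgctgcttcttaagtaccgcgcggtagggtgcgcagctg
In Trim30a and Trim30d the match was TTTCTTTTTC, starting at -36 and -41 from the gene start, and in Trim34a it was TTTCAGTTTC at 10 bases after it. The other annotated start of Trim30a (chr7:104446076-104446375) held the same TTTCTTTTTC. The Trim25 promoter held no match, which says only that these letters are not in this window.

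Of the 10 interferon-inducible members with enough reads to test, 8 held an ISRE core in a promoter: Trim12a, Trim12c and Trim5 with TTTCTGTTTC, Trim30a and Trim30d, Trim34a, Trim21 with GAAACTGAAA overlapping GAAAGTGAAA, and Trim26 with TTTCACTTTC overlapping TTTCCTTTTC. The Trim12a, Trim12c and Trim5 promoters, and those of Trim30a and Trim30d, come from copies of one another, so their matches are not separate events. Trim25 and Trim56 held none, nor did the 6 untested interferon-inducible members with a promoter in the RefSeq set (Trim6, Trim30b, Trim30c, Trim34b, Trim38 and Trim69), so the count over the list was 8 of 16. Of these 8, Trim5, Trim12a, Trim30d and Trim34a met the filter's level in every KO library but not in every WT library. The list was also chosen for induction by interferon, so a higher share of matches than among all genes was likely beforehand. These counts are therefore no test of a link between the match and the genotype difference. Counted by gene, a match was present in 9 of 53 TRIM genes and in 3.99% of all 27025 genes with a promoter of this length. Counted by promoter, it was present in 14.9% of 67 TRIM promoters and 3.44% of all 32851. The ninth TRIM gene was Trim2, a neuronal member, with TTTCCTTTTC at 1 of its 5 starts.

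Trim25 attaches ubiquitin chains to the RNA sensor RIG-I and so helps it to signal. The gene (ENSMUSG00000000275, chromosome 11, 88999376 to 89020293, GRCm38.p6) was at 4.72, 4.72 and 6.82 CPM in libraries WT 1, 3 and 5, against 7.30, 10.1 and 12.7 CPM in KO 2, 4 and 6. All KO libraries were above all WT libraries, with KO 2 close to WT 5. The means were 5.42 ± 1.21 and 10.04 ± 2.71 CPM (SD, n = 3 each), a log2 fold change of 0.89 (SE 0.25, 95% interval 0.33 to 1.44, edgeR unadjusted p = 0.00526, adjusted p = 1.0). Over the 14 alternatives its log2 fold change ranged from 0.68 to 1.09.

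Trim30a, a mouse gene whose protein limits Toll-like receptor signalling by lowering the adaptors TAB2 and TAB3, lies on the minus strand in a cluster on chromosome 7 (ENSMUSG00000030921, 104409025 to 104465193). It was at 1.60, 1.60 and 4.69 CPM in the WT mice against 5.03, 8.17 and 6.39 CPM in the KO mice. WT 1 and WT 3 were low, and WT 5 lay just under KO 2, the lowest KO library. Its log2 fold change came to 1.32 (SE 0.40, 95% interval 0.41 to 2.22, edgeR unadjusted p = 0.00887, adjusted p = 1.0). Without WT 5 it was 2.03 (adjusted p = 0.0331; 0.16% of all genes called) and without WT 5 and KO 4 it was 1.83 (adjusted p = 0.0423; 0.231% of all genes), and in both it was the 1 TRIM gene called by edgeR. With 1 library left out the log2 fold change of Trim30a ranged from 1.06 to 2.03. The adjusted p ranged from 0.000692 to 1.0 over all alternatives.

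Trim30d, the neighbouring copy, was at 0.581, 1.40 and 2.79 CPM in the WT mice against 3.40, 5.03 and 4.88 CPM in the KO mice. The order of the WT libraries was WT 1, WT 3, WT 5 from low to high, and no WT library reached a KO library. The log2 fold change came to 1.48 (SE 0.44, 95% interval 0.48 to 2.47, edgeR unadjusted p = 0.00786, adjusted p = 1.0), and 2.13 without WT 5. With 1 library left out the log2 fold change of Trim30d ranged from 1.09 to 2.13. Of the distinct 50-base stretches in annotated Trim30d transcripts (GENCODE M21, GRCm38) 7.49% also occur in transcripts of other genes, mostly Trim30a.

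Trim34a had 5, 13 and 26 counts in WT libraries against 40, 54 and 39 in KO, or 0.363, 0.830 and 1.91 CPM and 2.52, 3.77 and 2.80 CPM. The groups did not overlap, and WT 1 was again the lowest. The log2 fold change of 1.55 (SE 0.49, 95% interval 0.47 to 2.63, edgeR unadjusted p = 0.00980, adjusted p = 1.0) is uncertain for 2 reasons. Its near copy Trim34b shares 39.8% of its 50-base stretches, and the antisense gene Gm47248 overlaps 23.5% of its exon bases, in a counting whose strand setting is not given. Summed, Trim34a and Trim34b had 13, 19 and 26 counts in WT libraries against 58, 55 and 40 in KO, so the sum of both copies did not overlap between the groups either. The log2 fold change of Trim34a also depended on single libraries. With 1 library left out it ranged from 1.16 to 2.31, the latter without WT 5.

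**Figure D2:**
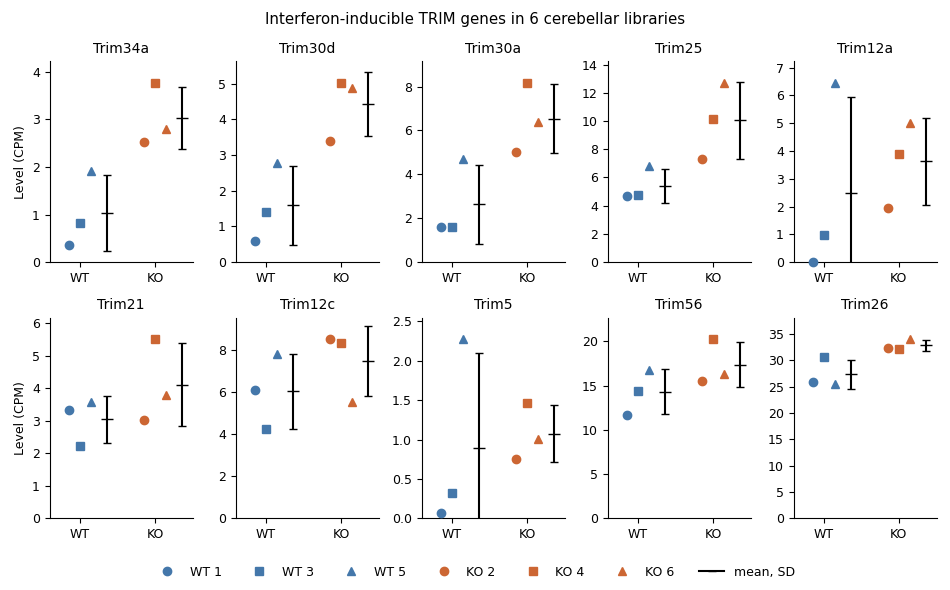
Level in CPM (y axis, from 0, 1 scale per panel) of the 10 tested interferon-inducible TRIM genes in each library, WT in blue and KO in orange, with symbols for the animals and the mean and SD of each group beside them (SD bars are cut at 0). Trim34a, Trim30d, Trim30a, Trim25 and Trim26 have every KO library above every WT library, and the WT 5 library is the highest WT library in 9 of the panels.

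The other interferon-inducible members showed smaller or less even differences. Trim26, which acts on the interferon factor IRF3, was at 25.99, 30.6 and 25.6 CPM in the WT mice against 32.3, 32.2 and 34.03 CPM in the KO mice, with no overlap and a log2 fold change of 0.26 (SE 0.12, edgeR unadjusted p = 0.0520). Trim26 had the highest level of the list per gene length, 4.18 ± 0.469 FPKM over the 6 libraries, while Trim30a was at 1.06 ± 0.603, Trim30d at 0.763 ± 0.455 and Trim34a at 0.746 ± 0.465 FPKM. The members with the largest differences were thus low in the cerebellum. Trim56, an activator of nucleic acid sensing, was at 11.7, 14.4 and 16.8 CPM in the WT mice against 15.5, 20.2 and 16.3 CPM in the KO mice, where KO 2 and KO 6 lay under WT 5 (a log2 fold change of 0.28 with an SE of 0.17).

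Trim21, a cytosolic receptor for antibodies on incoming virus, was at 3.34, 2.23 and 3.59 CPM in the WT mice against 3.02, 5.52 and 3.81 CPM in the KO mice, the groups overlapping (a log2 fold change of 0.43 with an SE of 0.30, 95% interval -0.24 to 1.10). Trim12c was at 6.10, 4.21 and 7.77 CPM in the WT mice against 8.49, 8.31 and 5.53 CPM in the KO mice, KO 6 lying below WT 1 and WT 5 (a log2 fold change of 0.31 with an SE of 0.26). Trim12c, Trim12a and Trim5 are mouse relatives of the retrovirus restriction factor TRIM5. Their copies share sequence: 36.6% of the 50-base stretches of Trim5, 33.7% of those of Trim12c and 10.5% of those of Trim12a occur in other genes, so their counts are uncertain.

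Trim12a and Trim5 varied widely between animals of one genotype. Trim12a had 0, 15 and 88 counts in libraries WT 1, 3 and 5, against 31, 56 and 70 in KO 2, 4 and 6. WT 5 was the highest of the 6 libraries, and WT 1 had none, a count of 0 that allows up to 0.218 CPM (3 counts, counting error only). Its log2 fold change of 0.56 (SE 0.91, 95% interval -1.48 to 2.60) was 2.83 without WT 5 and -0.017 without WT 1. Trim5 had 1, 5 and 31 counts in WT libraries against 12, 21 and 14 in KO, with the same order of the WT animals (a log2 fold change of 0.29 with an SE of 0.83, 95% interval -1.56 to 2.14), and it was 2.36 without WT 5. Trim34b, between them and Trim12c on the chromosome, ran the other way. It had 8, 6 and 0 counts in WT libraries against 18, 1 and 1 in KO, so that WT 1, WT 3 and KO 2 held 6 to 18 counts and WT 5, KO 4 and KO 6 held 0 or 1. It was too low to test.

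These genes lie side by side. In all, 10 interferon-inducible members, Trim6, Trim34a, Trim5, Trim12a, Trim34b, Trim12c, Trim30b, Trim30c, Trim30a and Trim30d in this order, lie on chromosome 7 from 104218793 to 104507849 (GRCm38.p6). Summed over the cluster, the level was 9.51, 9.95 and 26.4 CPM in libraries WT 1, 3 and 5, against 24.6, 31.1 and 26.5 CPM in KO 2, 4 and 6. WT 5 was thus level with the KO libraries and lay above KO 2. The 7 interferon-inducible members outside the cluster gave 46.1, 52.3 and 53.2 CPM in the WT mice against 58.4, 68.4 and 67.9 CPM in the KO mice, where WT 5 was close to WT 3 and the groups did not overlap. The 6 tested cluster members had a median log2 fold change of 0.94 and the 4 tested members elsewhere 0.35. This difference was not tested. The summed level of the Trim5, Trim12a and Trim12c copies was 6.17, 5.49 and 16.5 CPM in the WT mice against 11.2, 13.7 and 11.6 CPM in the KO mice, with WT 5 the highest library, and that of Trim30a and Trim30d was 2.18, 3.00 and 7.48 and 8.43, 13.2 and 11.3 CPM.

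**Figure D3:**
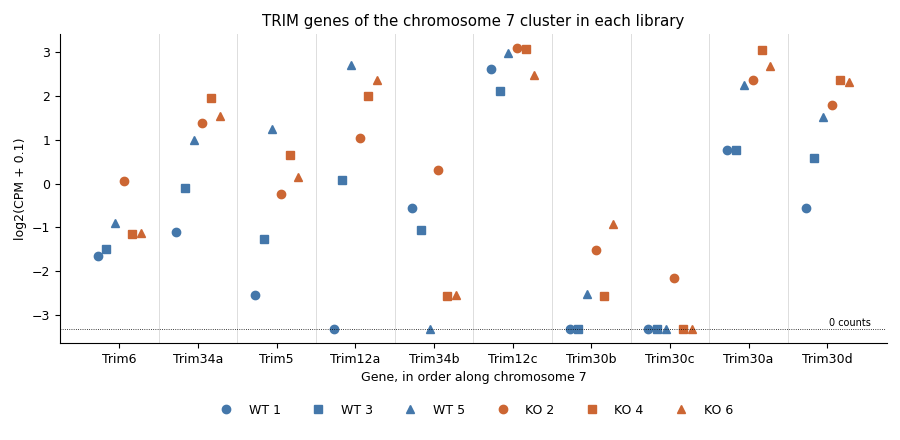
Level of the 10 TRIM genes of the chromosome 7 cluster, in their order along the chromosome (x axis), as log2(CPM + 0.1) (y axis) in each library, WT in blue and KO in orange. WT 5 sits with the KO libraries in Trim5 and Trim12a, where WT 1 has 1 and 0 counts, and in Trim34b WT 1, WT 3 and KO 2 sit above the other libraries.

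The 7 interferon-inducible members that were not tested had 1 to 38 counts over all libraries. Trim6 had 3, 4 and 6 counts in WT libraries against 15, 5 and 5 in KO. Trim14, which supports signalling by the adaptor MAVS, had 3, 5 and 3 and 3, 4 and 13 counts, KO 6 being the highest, and 31.3% of its exon bases overlap Nans on the opposite strand. Trim30b had 0, 0 and 1 and 4, 1 and 6 counts. Trim38, Trim30c and Trim69 had 6, 2 and 1 counts in all libraries together, and differences in them were not detectable at this depth.

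TRIM genes of the neuronal list had a far higher median level than the tested interferon-inducible members, and differed little between the groups. RNA from whole tissue does not show in which cells the neuronal members were expressed. Per gene length their median level was 19.6 FPKM, from 1.56 to 56.1 FPKM, where the tested interferon-inducible members had a median of 0.990 FPKM. All 11 log2 fold changes lay between -0.051 and 0.070, the groups overlapped in each, and the smallest unadjusted p was 0.599 (edgeR, Trim2). The 95% intervals lay between -0.48 and 0.62 on the log2 scale, the widest being that of Trim36. A p that misses the threshold does not show that they were equal, and these intervals give the differences that remain possible.

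Trim2 and Trim3 are related ligases with a C-terminal NHL domain. Trim2, which marks the neurofilament light chain and whose loss causes axon degeneration, was at 382, 417 and 439 CPM in the WT mice against 399, 420.2 and 376 CPM in the KO mice, with KO 2 and KO 4 inside the WT range and KO 6 below it (a log2 fold change of -0.051 with an SE of 0.093, 95% interval -0.26 to 0.16, edgeR adjusted p = 1.0). Trim3, a ligase of the postsynaptic density, was at 266, 254 and 225 CPM in the WT mice against 271, 197 and 281 CPM in the KO mice (a log2 fold change of 0.0086 with an SE of 0.14, 95% interval -0.30 to 0.32). Its lowest libraries were KO 4 and WT 5. Per length Trim3 was the more abundant, at 51.9 ± 6.53 FPKM against 19.6 ± 1.26 FPKM for Trim2 (SD over 6 libraries).

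Trim9, which controls axon branching through the netrin receptor, was at 338, 349 and 318 CPM in the WT mice against 331, 332 and 374 CPM in the KO mice (a log2 fold change of 0.043 with an SE of 0.092, 95% interval -0.16 to 0.25). Its paralog Trim67 was at 113, 126 and 102 CPM in the WT mice against 117, 105 and 130.0 CPM in the KO mice (a log2 fold change of 0.044 with an SE of 0.12). In both genes KO 6 was the highest library and WT 5 the lowest. Trim46, which bundles microtubules at the axon initial segment, was at 53.4, 57.8 and 44.1 CPM in the WT mice against 56.99, 37.8 and 55.5 CPM in the KO mice, with KO 4 and WT 5 the lowest (a log2 fold change of -0.047 with an SE of 0.17). Trim36, a related microtubule-binding member and the lowest of the list, was at 7.11, 7.40 and 8.73 CPM in the WT mice against 6.29, 11.4 and 6.75 CPM in the KO mice, and here KO 4 was the highest (a log2 fold change of 0.070 with an SE of 0.24).

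Trim37, a centrosome protein whose human gene is mutated in mulibrey nanism, had the highest level of all TRIM genes at 56.1 ± 3.56 FPKM (SD over 6 libraries). It was followed by Trim44 at 53.1 ± 3.45, Trim32 at 52.5 ± 3.83 and Trim3 at 51.9 ± 6.53 FPKM, and these 4 lay within each other's spread. Within the neuronal list the next were Trim9 (22.8 ± 1.24 FPKM) and Trim2, and then Trim23, Trim46 and Trim67, whose means were 15.1, 12.8 and 12.6 FPKM. Trim11 followed at 8.85 ± 1.24 FPKM. Members of other classes lay in between, Trim62, Trim28 and Trim35 among them.

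In CPM, Trim37 was at 418, 419.9 and 452 in WT against 417, 455 and 387 in KO, with a log2 fold change of -0.035 (SE 0.094). Trim44, a member without a RING finger, was at 295, 314 and 347 CPM in the WT mice against 304, 324 and 303 CPM in the KO mice (-0.039 on the log2 scale, SE 0.094). Trim32, which promotes neuronal differentiation and is mutated in a muscular dystrophy, was at 181, 186 and 158 CPM in the WT mice against 178, 168 and 197 CPM in the KO mice (0.046, SE 0.10). In each of these 3 genes the KO range overlapped the WT range. Trim23, which carries an ARF-type GTPase domain, was at 84.7, 81.6 and 102 CPM in the WT mice against 85.7, 116 and 76.5 CPM in the KO mice (0.053, SE 0.16), KO 4 and WT 5 being the highest. Trim11 was at 35.2, 35.7 and 28.2 CPM in the WT mice against 33.6, 27.2 and 39.5 CPM in the KO mice (0.015, SE 0.16), KO 4 and WT 5 being the lowest.

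**Figure D4:**
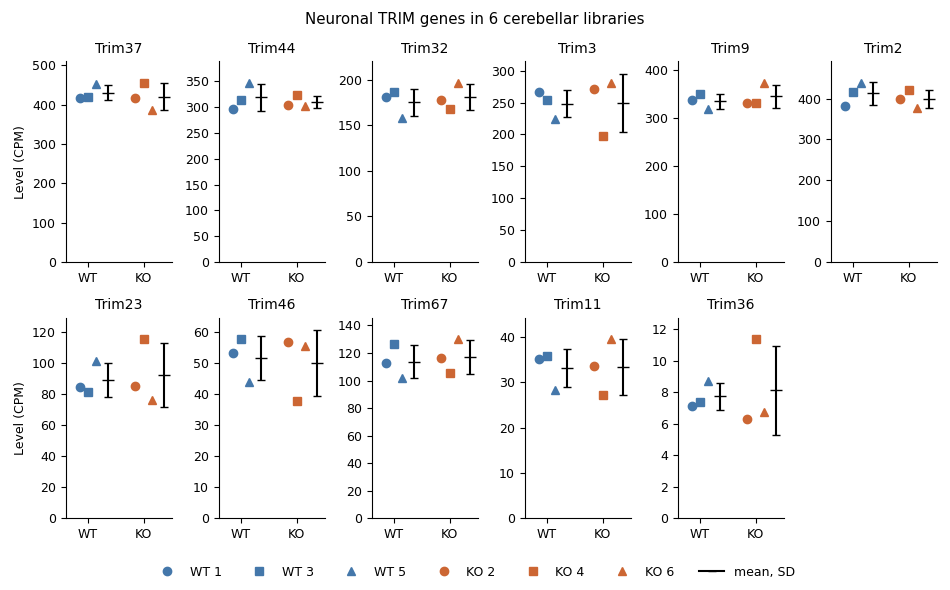
Level in CPM (y axis, from 0, 1 scale per panel) of the 11 neuronal TRIM genes in each library, ordered by FPKM, WT in blue and KO in orange, with symbols for the animals and the mean and SD of each group. The groups overlap in all 11 panels, and WT 5 and KO 4 move together away from the other libraries in several, such as Trim46 and Trim23.

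Among chromatin members, Trim28 (KAP1), the corepressor that silences endogenous retroviruses, was at 155, 158 and 124 CPM in the WT mice against 172, 143 and 187 CPM in the KO mice (a log2 fold change of 0.20 with an SE of 0.13), and its relative Trim33 was at 87.1, 86.8 and 100.2 and 88.3, 107 and 90.04 CPM (0.056, SE 0.11). Trim24 and Trim27 were at 0.094 and 0.072 on the log2 scale. Trim66, a further member of this family, was lower in every KO library, at 43.2, 40.3 and 40.6 CPM in the WT mice against 35.5, 34.6 and 35.3 CPM in the KO mice. Its values were close together within each group (a log2 fold change of -0.24 with an SE of 0.10, 95% interval -0.46 to -0.010, edgeR unadjusted p = 0.0421, adjusted p = 1.0). The unadjusted p of Trim66 was under 0.05 in 5 of 14 alternatives, and its log2 fold change was from -0.25 to -0.20.

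Of the muscle members 1 was tested, Trim72, a membrane repair protein, at 1.23, 0.447 and 0.807 CPM in the WT mice against 1.38, 0.559 and 1.72 CPM in the KO mice (a log2 fold change of 0.57 with an SE of 0.52). The antisense gene Gm15533 overlaps 27.6% of its exon bases. Trim63, Trim54 and Trim55, the muscle RING finger genes, had 15, 3 and 2 counts in all libraries together. For Trim63 these were 0, 0 and 1 in WT against 4, 5 and 5 in KO.

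Of the 31 other members 16 were tested, with a median log2 fold change of -0.027, 7 positive and 9 negative. The most abundant were Trim62 (39.4 ± 7.32 FPKM; log2 fold change -0.18, SE 0.17) and Trim35 (25.9 ± 1.09 FPKM; 0.082, SE 0.088). Trim62 was at 239, 254 and 168 CPM in the WT mice against 217, 156 and 209.9 CPM in the KO mice, WT 5 and KO 4 being the lowest. Trim16, which lacks a RING finger, was at 6.02, 4.53 and 4.03 CPM in the WT mice against 3.02, 3.49 and 3.45 CPM in the KO mice, with all KO libraries below all WT libraries (a log2 fold change of -0.55 with an SE of 0.23, 95% interval -1.07 to -0.027, edgeR unadjusted p = 0.0412, adjusted p = 1.0).

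Over all 43 tested members, 8 had every KO library above every WT library (3.58% of all tested genes did) and 3 the reverse (3.68%). Outside the interferon-inducible list the separated ones were Trim35, Trim7 and Trim17 (higher) and Trim66, Trim16 and Trim13 (lower). Trim7, Trim17 and Trim13 are named after their values were seen. Trim7 was at 2.25, 1.40 and 0.807 CPM in the WT mice against 2.58, 2.30 and 2.44 CPM in the KO mice (a log2 fold change of 0.71 with an SE of 0.37), and Trim17 at 2.32, 3.45 and 3.15 and 3.84, 4.26 and 4.88 CPM (0.54, SE 0.24). Trim17 shares 19% of its exon bases with a histone gene on the same strand, Hist3h2a, which makes its count uncertain. Trim35 and Trim13 lie on chromosome 14, as Slc39a14 does, 3.99 and 8.70 Mb from it. Trim35 was at 125, 125 and 116 CPM in the WT mice against 128, 125 and 135 CPM in the KO mice and Trim13 at 9.22, 9.19 and 9.17 and 8.81, 8.94 and 7.75 CPM, differences of 0.082 and -0.11 on the log2 scale (SE 0.088 and 0.16). For Trim35, KO 4 and the highest WT library are equal to 3 digits.

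The remaining 15 untested members had 0 to 42 counts each. Trim31, Trim52, Trim60 and Trim61 had no count in any library. Trim43b, which has close copies, had 0, 8 and 11 counts in WT libraries against 0, 8 and 13 in KO, WT 1 and KO 2 at 0, and Trim43c had 4, 6 and 7 and 6, 6 and 13. Trim75, Trim29, Trim80, Trim71, Trim50, Trim10, Trim58, Trim40 and Trim42 had 1 to 19 counts in all libraries together.

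Partners of the TRIM ligases were read from lists set beside the family. Of 21 genes of the RIG-I pathway and the ISG15 system, all tested, 1 was called, Usp18, which removes ISG15 from proteins. Usp18 was at 0.732 ± 0.222 CPM in the WT mice against 5.10 ± 1.17 CPM in the KO mice (SD, n = 3 each). Its log2 fold change was 2.77 (SE 0.33, edgeR adjusted p = 0.0237). The median of the list was 0.27, with 14 positive, and 8 had an unadjusted p under 0.05, all higher. Of all tested genes 0.0467% were called, 48.8% were positive and 1.69% were higher at such a p. The sensor that Trim25 acts on, Ddx58 (RIG-I), named after its values were seen, was at 4.14, 3.83 and 5.79 CPM in the WT mice against 10.6, 12.3 and 12.3 CPM in the KO mice (a log2 fold change of 1.36 with an SE of 0.20, edgeR adjusted p = 0.0791). Rnf135 (Riplet), another ligase of RIG-I, was at 4.57, 3.51 and 3.89 and 7.30, 3.35 and 4.52 CPM with overlapping groups (0.35, SE 0.30). The target of Trim30a on the list, Tab2, was at -0.045 (SE 0.11).

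Of 13 interferon receptor, kinase and transcription factor genes, all tested, 0 were called by edgeR, 7 were positive and the median was 0.065. At an unadjusted p under 0.05 there were 2, both higher, among them Irf9, a transcription factor of the interferon response, at 0.44 on the log2 scale (SE 0.18). Irf9 was at 25.3, 22.1 and 20.5 CPM in the WT mice against 28.2, 24.6 and 39.1 CPM in the KO mice. Its groups overlapped, KO 4 lying under WT 1, and KO 6 was the highest library. The most abundant, Jak1 and Stat2, were at -0.049 and 0.15. The 11 ubiquitin-conjugating enzymes that RING ligases draw on lay between -0.16 and 0.15, with a median of 0.0065 and 0 with an unadjusted p under 0.05, Ube2d3 being at -0.023 and Ube2n at 0.070. TRIM proteins that carry another symbol were not called either (5 of 6 tested, 3 positive, median 0.058, 0 with an unadjusted p under 0.05). Among them Pml, the interferon-inducible scaffold of nuclear bodies, was at 24.3, 21.8 and 17.7 CPM in the WT mice against 19.3, 19.9 and 24.2 CPM in the KO mice (-0.010, SE 0.16), and Mid2, a microtubule-binding ligase, was at 0.058 (SE 0.13).

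Markers of microglia, cells that express interferon-inducible genes, were higher in the KO libraries in sum. Of 15 markers 13 were positive, with a median log2 fold change of 0.43, and 0 were called by edgeR, with 6 higher and 1 lower at an unadjusted p under 0.05 (1.69% and 1.06% of all tested genes). Their summed level was 134 to 144 CPM in the WT mice against 163 to 214 CPM in the KO mice, and none was at 0. Within the list the log2 fold changes ran from -0.79 (Fcrls) to 1.01 (Ctss), the 2 negative ones being Fcrls and Itgam. P2ry12, Cx3cr1 and Tmem119 were at 0.0013, 0.11 and 0.64. By library the summed microglia level was 134, 144 and 143 CPM in WT 1, 3 and 5. The part of microglia in the TRIM values was not tested. Choroid plexus markers summed to 1361, 586 and 443 CPM in the WT mice against 2221, 3239 and 1041 CPM in the KO mice. WT 5 was the lowest of all libraries, 10 of 10 markers were positive and none was at 0. The median log2 fold change of these markers was 1.39, where the tested interferon-inducible TRIM members had 0.50. Of the 10 markers 0 were called by edgeR and 9 were higher at an unadjusted p under 0.05 (1.69% of all tested genes). Their part in the TRIM values was not tested.

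**Figure D5:**
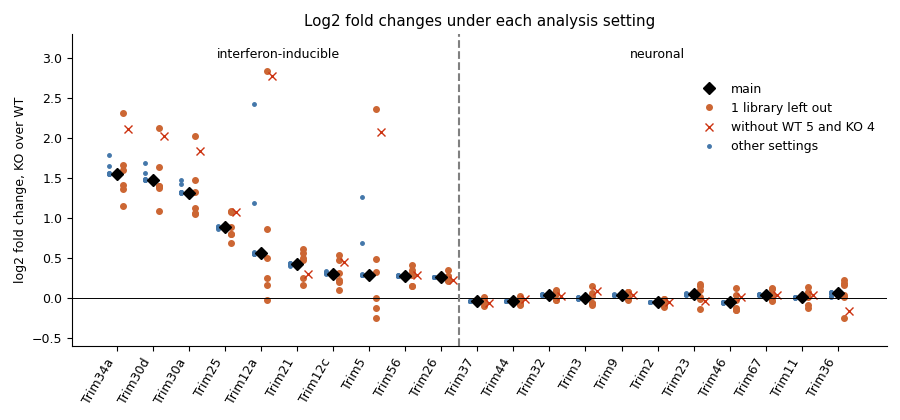
Log2 fold change of KO over WT (y axis) for the 10 tested interferon-inducible and 11 neuronal TRIM genes (x axis) as reported above (diamonds, "main"), with 1 library left out (orange), without WT 5 and KO 4 (crosses) and under the other settings (blue). Trim34a, Trim30d, Trim30a and Trim25 stay above 0 under every setting, from 0.68 up to 2.31, while Trim12a and Trim5 spread from below 0 to 2.83 and 2.36.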

How the data were processed

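TRIZOL was used to isolate RNA from whole cerebellum, and a company prepared and sequenced the libraries, per the labels' protocols. The submitters' processing notes list HISAT2, DESeq2 and GRCm38.p6 with no version or role for the tools. In the deposited table, counts are whole numbers per gene in each library, and the deposited FPKM values rescale them by gene length and library total. It further gives group means as a scaled signal (the authors' values, unused here), plus log2 fold changes and p-values of the authors' deposited comparison. No source names the counting program or its strand setting.

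Sample titles gave the groups. The main test was the quasi-likelihood F test of edgeR 4.0.16 (R 4.3.3) with TMM normalization, filterByExpr and Benjamini-Hochberg adjustment over 17142 genes. Log2 fold changes are KO minus WT, and the standard error is their size over the root of F. Alternatives used DESeq2 1.42.0, limma 3.58.1 (voom), other normalizations and filters, and left-out libraries. The fit was tested on simulated data. With 3 libraries per group, p-values set the difference between the groups against the spread between these animals. That spread was estimated in part from all fitted genes. In these libraries 1 count was worth 0.0629 to 0.0733 CPM. The members, lists and tests were chosen with earlier results of these data known. Named with values are all tested interferon-inducible and neuronal members, others with an unadjusted p under 0.05 and the 2 most abundant of each other class; of the partner lists, called genes or else the 2 most abundant; other genes of those lists were chosen after their values were seen. Marker lists of lymphocytes and blood, meninges, endothelium, astrocytes, oligodendrocytes, Purkinje cells and skeletal muscle had medians of 0.058, 0.26, 0.15, 0.081, 0.080, 0.097 and -0.46. Python 3.11.15, pandas 2.3.3 and matplotlib 3.10.9 served for tables and figures. The values of 1 gene of the interferon signalling list are not reported here.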

Additional observations from a re-analysis of the deposited data

How the results depend on the processing

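Of 392 log2 fold changes of the 28 named TRIM genes under 14 alternatives, 359 kept direction and side of the threshold, 27 changed sign and 6 became called; 15 genes, Trim25, Trim30a, Trim30d and Trim34a among them, never changed sign. The number of TRIM genes called, 0 in the report, was 4 by edgeR without the low-count filter. It was 1 without WT 5 and KO 4, and 0 to 1 with 1 library left out. The number with an unadjusted p under 0.05 was 6 (2.75% of all genes). It was 11 when the model held a term for WT 5 and KO 4 (6% of all genes), and 4 to 9 with 1 library left out (2.47% to 3.78% of all genes). The interferon-inducible median was 1.46 without WT 5 and KO 4 and 0.32 to 1.56 with 1 library left out; the neuronal median was -0.018 to 0.075. Signs changed for Trim3 by limma-voom (-0.0051) and with the term for WT 5 and KO 4 (-0.0042), and without WT 5 and KO 4 for Trim23 (-0.032), Trim46 (0.020) and Trim36 (-0.15). With 1 library left out the log2 fold change ranged from -0.12 to 0.15 for Trim11, -0.017 to 2.83 for Trim12a, -0.13 to 0.17 for Trim23, -0.084 to 0.16 for Trim3, -0.020 to 0.10 for Trim32, -0.031 to 0.13 for Trim33, -0.24 to 0.23 for Trim36, -0.094 to 0.021 for Trim37, -0.089 to 0.029 for Trim44, -0.15 to 0.12 for Trim46, -0.25 to 2.36 for Trim5, -0.036 to 0.13 for Trim67, -0.017 to 0.079 for Trim9. The cause of these changes was not tested. No paired analysis was possible because the animals of the 2 groups share no number.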

Other observations

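The pseudogene Trim30e-ps1, beside Trim30d on chromosome 7 and outside the rule because it is not protein-coding, had 0, 5 and 19 counts in libraries WT 1, 3 and 5 against 5, 13 and 8 in KO 2, 4 and 6. WT 5 was its highest library and WT 1 had 0. Mid1, a microtubule-binding TRIM protein with another symbol, was at 1.96, 5.49 and 1.03 CPM in WT libraries against 2.01, 7.54 and 4.88 CPM in KO, a spread within genotypes that left its log2 fold change of 0.74 with an SE of 0.58.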
